A study of Homo sapiens with 8 samples.

Results

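Gene-desert peaks are ChIP-seq peaks in intergenic DNA whose center lies more than 100 kb from the nearest transcription start site (TSS). They were taken from the lists of dnTCF1EWT at 2 h, dnTCF1EWT at 9 h and dnTCF1Emut at 2 h, and were selected on the annotation, the distance and a peak score above 67. This gave 301 peaks for dnTCF1EWT at 2 h, 399 for dnTCF1EWT at 9 h and 335 for dnTCF1Emut at 2 h, of 1802, 2649 and 1229 peaks above the same score. All 6 lists of the series held 23433 peaks. When overlapping peaks of the 3 lists were merged, the 1035 gene-desert peaks formed 884 distinct regions, of which 760 were a member in 1 list, 101 in 2 lists and 23 in all 3. Membership needed a score above 67 in each list, so a weaker peak in another list did not count here. The same count was not made over all peaks, so it does not show how particular these regions are to a list.

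The study compared DLD-1 colon cancer cells that carry a FLAG-tagged, dominant negative TCF1E under the control of doxycycline, either with a wild-type C-clamp (dnTCF1EWT) or with a mutated C-clamp (dnTCF1Emut). Each protein was carried by its own clonal line, grown in medium with blasticidin and zeocin, so that line and protein cannot be told apart. Chromatin was precipitated with anti-FLAG beads after 2 or 9 h of doxycycline, or at 0 h from cells without doxycycline, which do not overexpress the tagged protein. The duplicate cultures of a condition were pooled into 1 list before the peaks were called, so that no replicate spread is available and no test between conditions was possible.

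TCF1 is 1 of the TCF and LEF proteins that carry the Wnt signal to DNA together with β-catenin, and DLD-1 cells have high endogenous Wnt signaling. Its HMG box recognizes the Wnt response element (WRE), CTTTG followed by 2 bases that are A or T and by C or G, while the C-clamp recognizes GC-rich Helper sites, in the short form A or G followed by CCG and in the full form A or G followed by CCGCC. Gene deserts are long stretches without annotated genes. They can hold enhancers that act on distant genes, often genes of development, and they also hold repeats such as Alu elements, LTRs of endogenous retroviruses and AT-rich simple repeats. The nearest gene is given here as an address, and distances are to its start site, so that a peak can lie nearer to the other end of a gene.

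The peak score is the MACS score, which grows with the negative log10 of the P-value of the peak; no scaling for depth was applied, and the depth is unknown. Intervals are 95% Wilson intervals that cover counting error only, and peaks of a list are not replicates of a condition. The full lists held 5585 peaks for dnTCF1EWT at 2 h, 12996 at 9 h and 1883 for dnTCF1Emut at 2 h, each with a lowest score just above 50. The lists of cells without doxycycline held 1907 peaks (dnTCF1EWT) and 708 peaks (dnTCF1Emut), and the dnTCF1Emut 9 h list held 354.

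Of the intergenic peaks with a score above 67, gene-desert peaks made up 46.3% for dnTCF1Emut at 2 h (335 of 724, interval 42.7 to 49.9%), 31.8% for dnTCF1EWT at 2 h (301 of 948, 28.9 to 34.8%) and 29.2% for dnTCF1EWT at 9 h (399 of 1368, 26.8 to 31.6%). The dnTCF1Emut interval did not overlap those of dnTCF1EWT. The median distance to the nearest TSS was 206 kb for dnTCF1EWT at 2 h, 217 kb at 9 h and 245 kb for dnTCF1Emut at 2 h. Peaks more than 500 kb away numbered 51, 74 and 71 in that order, and peaks more than 1 Mb away numbered 10, 20 and 15. The nearest gene was annotated as protein-coding for 232, 276 and 237 of them. Just inside the score limit lay peaks of 67.08, 67.02 and 67.06, and just outside it peaks of 66.96, 66.83 and 66.61. The distance limit separated 100010 from 99901 bp for dnTCF1EWT at 2 h, 100509 from 99890 bp at 9 h, and 100091 from 99519 bp for dnTCF1Emut.

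The base composition of gene-desert peaks differed between the lists. Their median GC content was 43.6% for dnTCF1EWT at 2 h (quartiles 39.5 and 49.0%), 49.1% at 9 h (44.7 and 52.8%) and 36.0% for dnTCF1Emut at 2 h (11.5 and 39.7%). The medians over all peaks with a score above 67 stood in the same order, at 45.8, 50.9 and 37.2%. The low quartile of dnTCF1Emut came from 88 of its 335 gene-desert peaks (26.3%, 21.8 to 31.2%) with a GC content below 15%, a class that had no member in either dnTCF1EWT list. Over all dnTCF1Emut peaks with a score above 67 the share was 20.9%, just below this interval. Among its intergenic peaks within 100 kb of a TSS it was 22.4%, inside the interval.

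**Figure D1:**
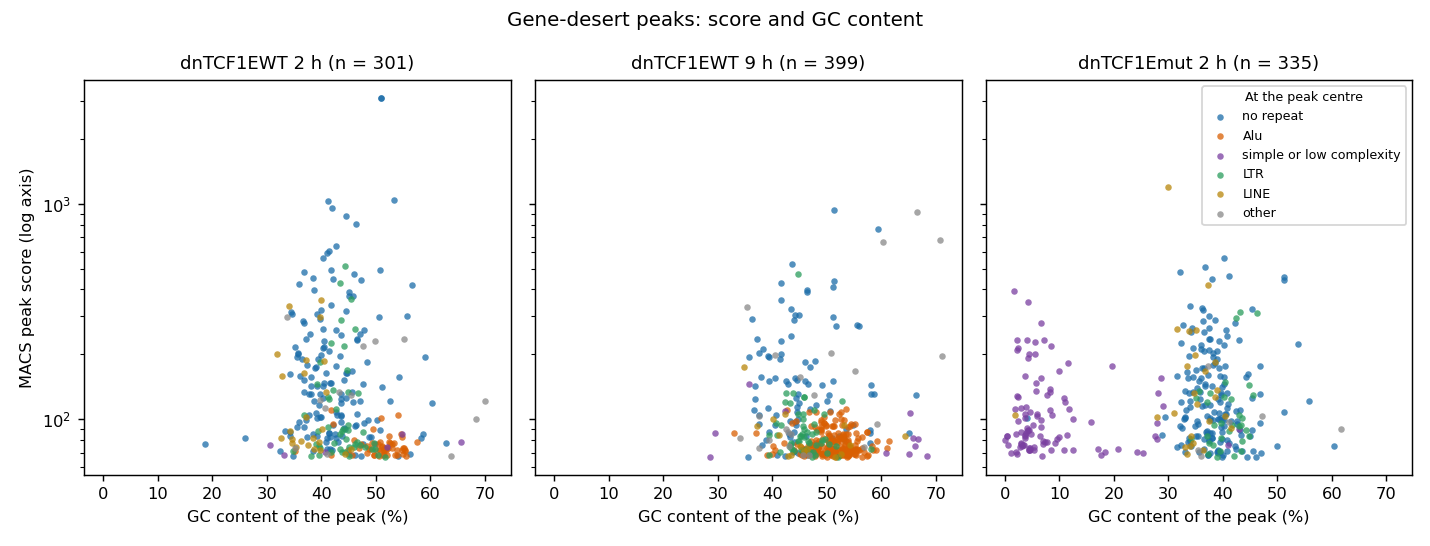
Peak score (log axis) against GC content (%) for every gene-desert peak, 1 panel per list, with a point per peak colored by the repeat at its center. The dnTCF1EWT 9 h panel holds a dense group of 204 Alu peaks with a median GC content of 51.3% and a median score of 74.0, and the dnTCF1Emut panel a separate group of simple repeats with a median GC content of 5.50%.

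The sequence at the center of the peak, as annotated in the lists, also differed. Of the dnTCF1EWT 2 h gene-desert peaks, 155 of 301 (51.5%) had no repeat or CpG island at their center, as did 169 of 335 for dnTCF1Emut (50.4%, 45.1 to 55.8%) but only 94 of 399 for dnTCF1EWT at 9 h (23.6%, 19.7 to 28.0%). At 9 h the center of 204 dnTCF1EWT peaks (51.1%, 46.2 to 56.0%) lay in an Alu element, the most abundant short interspersed repeat of the human genome. The Alu count was 54 at 2 h (17.9%, 14.0 to 22.7%) and 0 for dnTCF1Emut. Simple repeats and low-complexity DNA made up 102 dnTCF1Emut peaks (30.4%, 25.8 to 35.6%) against 6 and 11 for dnTCF1EWT at 2 and 9 h. The intergenic peaks within 100 kb of a TSS showed the same order, with Alu at 18.2% and 57.4% for dnTCF1EWT at 2 and 9 h and with simple repeats at 23.4% for dnTCF1Emut.

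**Figure D2:**
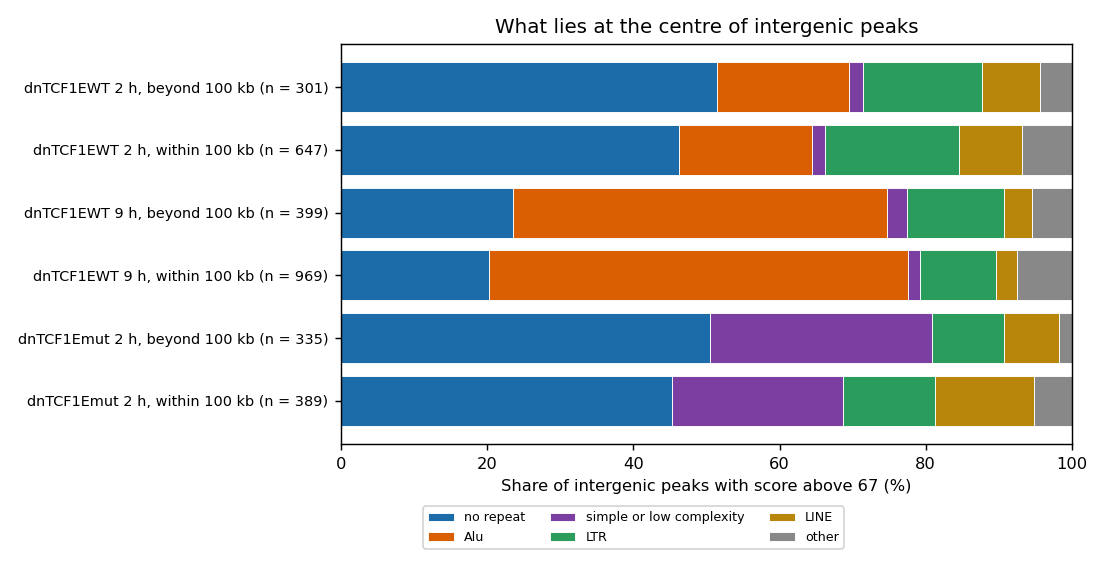
Share (%) of intergenic peaks with a score above 67 by what lies at the peak center, for peaks beyond and within 100 kb of a TSS in each list. Alu elements take 51.1% of the bar beyond 100 kb and 57.4% of the bar within 100 kb for dnTCF1EWT at 9 h and have no part in the dnTCF1Emut bars.

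Alu peaks had low scores and almost no WRE. At 9 h their median score was 74.0 against 130 for the peaks without a repeat, 1 of the 204 held a WRE, and 6 were overlapped by a peak of the dnTCF1EWT 2 h list. They were also shorter, with a median length of 204 bp against 368 bp for the peaks without a repeat. The most frequent subfamilies were AluY with 38 peaks, then AluSx1 and AluSz with 26 each. At 2 h, 0 of 54 Alu peaks held a WRE, which allows a share of up to 5.56% (3 counts of the total, in place of a Wilson limit), and 6 were overlapped at 9 h. None of the Alu peaks of either time was overlapped by a dnTCF1Emut 2 h peak. Among all peaks with a score above 67, 1 of 355 Alu peaks at 2 h and 1 of 1506 at 9 h was. A WRE was held by 8 of the 355 (2.25%) and 24 of the 1506 (1.59%), with median scores of 73.5 and 73.8. Of the 1506, 49 were overlapped at 2 h. These traits of Alu peaks were thus not particular to gene deserts. Among the 50 highest-scoring gene-desert peaks of each dnTCF1EWT list there was no Alu peak, whereas among those ranked 201 to 399 at 9 h there were 144 of 199. How reads that map to several copies of a repeat were treated is not given in the sources used here, and its part in these counts was not tested.

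A WRE was found in 112 of 301 gene-desert peaks of dnTCF1EWT at 2 h (37.2%, 31.9 to 42.8%), in 83 of 399 at 9 h (20.8%, 17.1 to 25.1%) and in 115 of 335 of dnTCF1Emut at 2 h (34.3%, 29.4 to 39.6%). Over all peaks with a score above 67 the shares were 37.0, 16.8 and 39.4%, which lay inside the gene-desert intervals at 2 h for both proteins and just below the interval at 9 h. The median length of the gene-desert peaks was 331, 235 and 500 bp in the same order. The number of WREs per kb, averaged over gene-desert peaks, was 1.36, 0.872 and 1.02. Beyond this average, the part of peak length in the WRE shares given here was not tested. A pair of WREs or more was present in 40 (13.3%, 9.91 to 17.6%), 27 (6.77%, 4.69 to 9.67%) and 33 peaks (9.85%, 7.10 to 13.5%). Among all peaks with a score above 67 the shares were 12.3, 5.47 and 14.3%. These lay inside the interval for both dnTCF1EWT lists and above it for dnTCF1Emut.

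Outside repeats the 3 lists came closer together. Of the peaks with no repeat at their center, 80 of 155 held a WRE for dnTCF1EWT at 2 h (51.6%, 43.8 to 59.3%). The counts were 43 of 94 at 9 h (45.7%, 36.0 to 55.8%) and 79 of 169 for dnTCF1Emut (46.7%, 39.4 to 54.3%). Intergenic peaks of this class within 100 kb of a TSS had shares of 47.2, 41.3 and 52.8%, so that this was not particular to gene-desert peaks. Within the narrow band of 40 to 45% GC the shares were 47.8% (43 of 90, interval 37.8 to 58.0%), 55.7% (39 of 70, 44.1 to 66.8%) and 62.5% (35 of 56, 49.4 to 74.0%), with overlapping intervals. Between 45 and 50% GC they were 47.4% (27 of 57, 35 to 60.1%), 18.3% (20 of 109, 12.2 to 26.6%) and 64.3% (9 of 14, 38.8 to 83.7%), and here the 9 h interval lay below those of both 2 h lists. The share with a WRE also went with the score. It was 66.0% among the 50 highest-scoring dnTCF1EWT 2 h peaks and 15.8% among those ranked 201 to 301. At 9 h it was 50% among the first 50 and 9.05% among those ranked 201 to 399. For dnTCF1Emut it was 42.0% in the first 50, 50% in the next 50 and 25.9% among those ranked 201 to 335.

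Helper sites, the targets of the C-clamp, had lower shares in the gene-desert peaks than in all peaks with a score above 67, but whether the share over all peaks lay outside the gene-desert interval depended on the list and on the form of the site. The full Helper site was present in 30 of 301 peaks of dnTCF1EWT at 2 h (9.97%, 7.07 to 13.9%, against 14.2% of all peaks), in 22 of 399 at 9 h (5.51%, 3.67 to 8.21%, against 10.2%) and in 10 of 335 of dnTCF1Emut (2.99%, 1.63 to 5.41%, against 5.29%). The share over all peaks lay above the interval in both dnTCF1EWT lists and inside it for dnTCF1Emut. In the intergenic peaks within 100 kb the shares were 13.1, 11.2 and 4.63%. The gene-desert peaks also had the lower median GC content in each list, and the part of GC in this difference was not tested. Most peaks with a Helper site had no WRE beside it, 22 of 30, 16 of 22 and 6 of 10. Among all peaks with a score above 67 the counts were 166 of 255, 194 of 270 and 30 of 65. Whether the gene-desert peaks differ from these was not tested. The short Helper site was found in 168 peaks at 2 h (55.8%, 50.2 to 61.3%, against 67.5% of all peaks), 245 at 9 h (61.4%, 56.5 to 66.0%, against 63.7%) and 121 for dnTCF1Emut (36.1%, 31.2 to 41.4%, against 43.0%). For this form the share over all peaks lay above the interval at 2 h for both proteins and inside it for dnTCF1EWT at 9 h.

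Recovery was counted as overlap by at least 1 base with any peak of another list. Where several peaks of the other list overlapped a member, the highest of their scores was taken. Of the 301 dnTCF1EWT 2 h gene-desert peaks, 90 were overlapped at 9 h (29.9%, 25 to 35.3%), against 33.1% of all dnTCF1EWT 2 h peaks with a score above 67. A dnTCF1Emut 2 h peak overlapped 93 of them (30.9%, 25.9 to 36.3%), against a background of 25.4%. Of the 399 dnTCF1EWT 9 h peaks, 80 were overlapped at 2 h (20.1%, 16.4 to 24.3%, background 20.0%) and 36 by dnTCF1Emut at 2 h (9.02%, 6.59 to 12.2%, background 7.36%). Of the 335 dnTCF1Emut peaks, dnTCF1EWT peaks overlapped 91 at 2 h (27.2%, 22.7 to 32.2%, background 34.5%) and 42 at 9 h (12.5%, 9.41 to 16.5%, background 16.4%). The lists are of unequal length, and each share is limited by the length of the list searched. The background lay outside the interval for dnTCF1EWT 2 h peaks in the dnTCF1Emut list, where the gene-desert share was higher, and for dnTCF1Emut peaks in the dnTCF1EWT 2 h list, where it was lower. It lay inside the interval for the other 4 pairs.

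Peaks of cells without doxycycline overlapped few dnTCF1EWT gene-desert peaks and many of dnTCF1Emut. A peak of either 0 h list overlapped 7 dnTCF1EWT peaks at 2 h (2.33%, background 2.22%) and 6 at 9 h (1.5%, background 3.06%). For dnTCF1Emut it was 73 of 335 (21.8%, 17.7 to 26.5%, background 19.2%), all of them in the 0 h list of the same cell line. The dnTCF1Emut 9 h list overlapped 57 dnTCF1Emut 2 h peaks (17.0%, background 17.5%), 20 dnTCF1EWT 2 h peaks (6.64%, background 4.99%) and 13 dnTCF1EWT 9 h peaks (3.26%, background 2.72%).

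Peaks with a WRE were recovered more often than those without in each pair of lists. For dnTCF1EWT at 2 h, 49 of 112 peaks with a WRE were overlapped at 9 h (43.8%, 34.9 to 53.0%) against 41 of 189 without (21.7%, 16.4 to 28.1%). In the dnTCF1Emut list the shares were 49.1% (40 to 58.2%) and 20.1% (15 to 26.4%). For dnTCF1Emut, 56 of 115 peaks with a WRE were overlapped by dnTCF1EWT at 2 h (48.7%, 39.8 to 57.7%) against 35 of 220 without (15.9%, 11.7 to 21.3%). For dnTCF1EWT at 9 h the shares in the 2 h list were 47.0% (36.6 to 57.6%) and 13% (9.71 to 17.1%). In none of the 6 pairs of lists did the intervals with and without a WRE overlap. Over all peaks with a score above 67 the shares differed in the same direction, for example 42.3 against 27.8% for dnTCF1EWT at 2 h in the 9 h list. Peaks with and without a WRE were not matched for length, and the part of length in this difference was not tested.

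**Figure D3:**
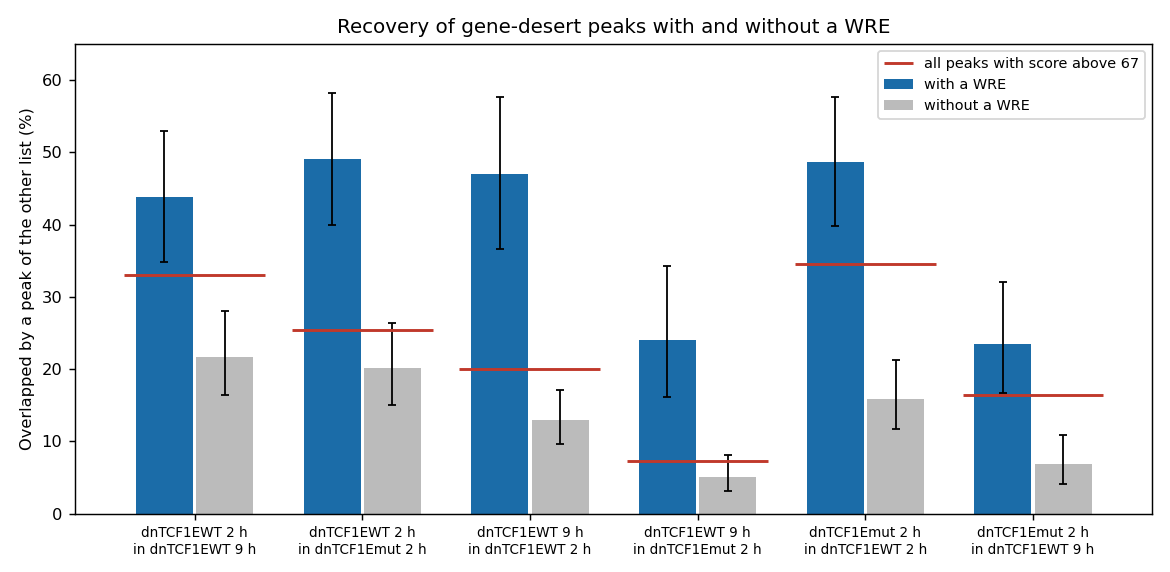
Share (%) of gene-desert peaks overlapped by a peak of another list, for peaks with and without a WRE, with 95% Wilson intervals as error bars; the red lines mark the share over all peaks with a score above 67. The bars with a WRE lie between 23.5 and 49.1%, and the bars without between 5.06 and 21.7%.

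Scores moved with this difference. The median score at 2 h was 165 for dnTCF1EWT peaks with a WRE and 82.9 for those without, and for dnTCF1Emut it was 114 and 98.8. Among peaks with a score of 100 or more, the shares of dnTCF1EWT 2 h peaks overlapped by dnTCF1Emut were 57.0% with a WRE (46.0 to 67.3%) and 46.3% without (34.9 to 58.1%), with overlapping intervals. Between 67 and 100 they were 30.3% (17.4 to 47.3%) and 5.74% (2.81 to 11.4%). For dnTCF1Emut peaks with a score of 100 or more, dnTCF1EWT at 2 h overlapped 57.1% with a WRE (45.5 to 68.1%) and 23.4% without (16.4 to 32.2%). Among dnTCF1Emut peaks with no repeat at their center the shares were 51.9% (41.1 to 62.6%) and 32.2% (23.5 to 42.4%), with overlapping intervals. Recovery also went with the rank by score, since 38 of the first 50 dnTCF1EWT 2 h peaks were overlapped at 9 h and 10 of the last 101.

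Of the 301 dnTCF1EWT 2 h gene-desert peaks, 37 were overlapped in both other lists, and 26 of these held a WRE (70.3%), against 34 of the 155 that were overlapped in neither (21.9%). No repeat lay at the center of 28 of the 37 (75.7%), against 52 of the 155 (33.5%). The median score was 320 for the 37 and 78.1 for the 155, and the part of score in the WRE difference was not tested. Overlap in both other lists was not counted over all dnTCF1EWT 2 h peaks. None of the 37 was overlapped by a peak of cells without doxycycline, and 13 were overlapped at 9 h of dnTCF1Emut. The score was highest for dnTCF1EWT at 2 h in 32 of the 37 regions and for dnTCF1Emut in 5. These regions were found through their dnTCF1EWT 2 h score, and scores are not scaled for depth, so that this order is a description of the lists.

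**Figure D4:**
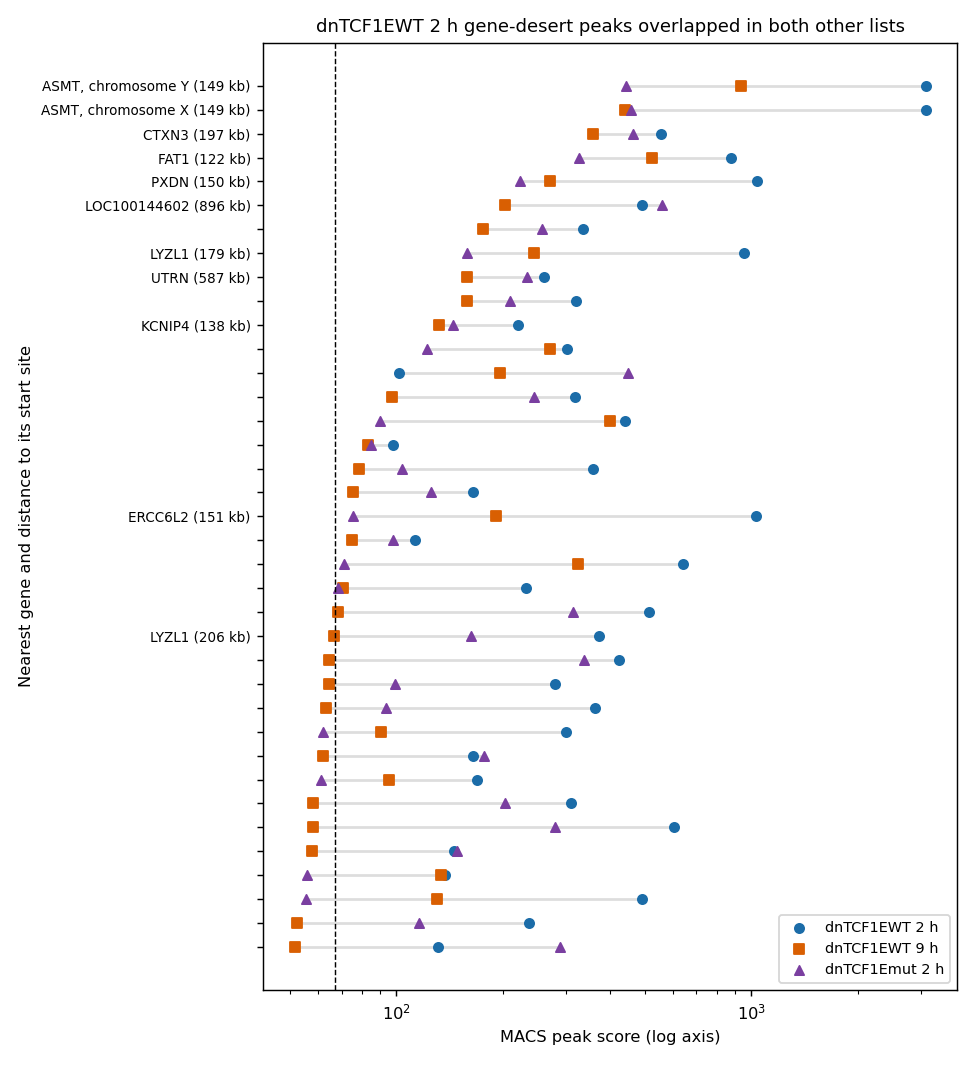
Peak scores (log axis) at the 37 dnTCF1EWT 2 h gene-desert peaks overlapped in both other lists, 1 row per region, with the nearest gene and the distance to its start site for the regions described in the text; the dashed line marks a score of 67. The dnTCF1EWT 2 h point is the rightmost in 32 rows, and the highest scores belong to the ASMT regions of chromosomes X and Y, both at 3100.

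The strongest gene-desert peak of dnTCF1EWT at 2 h was listed at chrX:1882348-1884240 (hg19), 149 kb downstream of the start of ASMT, which encodes the last enzyme of melatonin synthesis. It had a score of 3100, was 1893 bp long and held no WRE, no full Helper site and 54 short Helper sites. A copy with the same score stood at chrY:1832348-1834240, 50000 bp lower in coordinate, within the pseudoautosomal region that chromosomes X and Y share. At 9 h the highest overlapping peak had a score of 440 on X and 932 on Y. A further 9 h peak lay in each region, with scores of 297 and 412. For dnTCF1Emut at 2 h the highest scores were 459 on X and 443 on Y, and a further peak on X had a score of 109. The same locus therefore entered the counts on both chromosomes. A chromosome Y member had a chromosome X copy at this offset for 1 peak of dnTCF1EWT at 2 h, 3 at 9 h and 1 of dnTCF1Emut.

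At chr4:187766569-187767163, 122 kb upstream of FAT1, a gene of the atypical cadherins, the peak had a score of 874 for dnTCF1EWT at 2 h, 524 at 9 h, 326 for dnTCF1Emut at 2 h and 125 for dnTCF1Emut at 9 h. It held 1 WRE and no Helper site, and neither 0 h list had a peak there. At chr2:1597639-1598210, 150 kb from PXDN, which encodes the matrix protein peroxidasin, the scores were 1039, 271, 223 and 92.4 in the same order, with 1 WRE and 5 short Helper sites. The peak 179 kb upstream of LYZL1, a lysozyme-like gene, at chr10:29398524-29399161, had scores of 950, 244, 158 and 80.5 and held 2 WREs. All 3 regions were highest for dnTCF1EWT at 2 h and lowest for dnTCF1Emut at 9 h.

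The peak 151 kb upstream of ERCC6L2, a gene of DNA repair, at chr9:98486625-98487358, had scores of 1032 for dnTCF1EWT at 2 h, 190 at 9 h and 75.5 for dnTCF1Emut, and no peak was listed for dnTCF1Emut at 9 h. It held 3 WREs. At CTXN3, a gene of the cortexin family, the scores at chr5:127185470-127186024 were 557, 357 and 463, closer to each other than at ERCC6L2. The CTXN3 peak held no WRE and 1 full Helper site.

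LOC100144602, a noncoding gene, was the region among these where dnTCF1Emut stood above dnTCF1EWT. At chr4:67431050-67431550, 896 kb from its start, the scores were 492 for dnTCF1EWT at 2 h, 202 at 9 h, 560 for dnTCF1Emut at 2 h and 176 at 9 h, with no WRE and 1 full Helper site. A further shared region lay 587 kb from the start of UTRN, which encodes utrophin, with scores of 260 for dnTCF1EWT at 2 h, 158 at 9 h and 233 for dnTCF1Emut at 2 h. The dnTCF1EWT 2 h peak held no WRE and 1 short Helper site, and the dnTCF1Emut peak held no WRE and 2.

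Some of the strongest peaks were missing from the dnTCF1EWT 2 h list. For dnTCF1EWT at 9 h, the peak 261 kb upstream of SALL3, a zinc finger factor of development, had a score of 762, and the overlapping dnTCF1Emut 2 h peak had a score of 75.5. It had no WRE, no Helper site of either form and a GC content of 59.5%. A CpG island 227 kb upstream of KLF4, a factor of gut epithelial differentiation, had scores of 662 for dnTCF1EWT at 9 h and 90.2 for dnTCF1Emut at 2 h, with 18 short Helper sites and no WRE. The peak 135 kb from CYP26A1, an enzyme that degrades retinoic acid, had scores of 510 for dnTCF1Emut at 2 h, 292 for dnTCF1EWT at 9 h and 186 for dnTCF1Emut at 9 h. At each of these loci, listing in a 9 h or a dnTCF1Emut list went without a peak above the floor of the dnTCF1EWT 2 h list.

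Among the other leading 9 h peaks were CpG islands 135 kb from LOC100133920, at a score of 918 with 32 full Helper sites, and 1338 kb from MIR4436A, at 682 with 38. Their scores at 2 h were 121 and 100.1, and dnTCF1Emut had no peak at either. The strongest gene-desert peak of dnTCF1Emut at 2 h lay 788 kb from CCDC85A, at chr2:57198238-57199306 in an L1MA8 element. It had a score of 1199, 4 WREs and a GC content of 29.8%, was listed at 61.3 in the same line without doxycycline and at 161 at 9 h, and was missing from the dnTCF1EWT lists. The peak 572 kb upstream of ACVR2A, an activin receptor, had a score of 484 and was in no other list.

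The AT-rich group of dnTCF1Emut stood apart from its other gene-desert peaks. Such peaks were not particular to gene deserts, since 257 of all 1229 dnTCF1Emut peaks with a score above 67 were as AT-rich. The 88 peaks with a GC content below 15% had a median GC content of 4.48%, 62 of them were annotated as repeats of TA, and 2 held a WRE (2.27%). A peak of dnTCF1Emut at 0 h overlapped 69 of them (78.4%), a peak of dnTCF1Emut at 9 h overlapped 29 (33.0%), and none was overlapped by any of the dnTCF1EWT lists. At the 69 regions the median score was 99.4 at 2 h and 159 at 0 h, and the score was higher at 2 h in 20 of them. Their median distance to a TSS was 421 kb, against 203 kb for the other 247.

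The other 247 dnTCF1Emut peaks held a WRE in 113 cases (45.7%), had a median GC content of 37.7%, and were overlapped by dnTCF1EWT in 91 cases at 2 h (36.8%) and by the 0 h list of the same line in 4 (1.62%). AT-rich peaks grew in share with distance, from 20 of 139 between 100 and 200 kb (14.4%) and 32 of 125 between 200 and 500 kb (25.6%) to 36 of 71 beyond 500 kb (50.7%). The share with a WRE fell over the same steps, from 41.0 and 36.0 to 18.3%. For dnTCF1EWT at 2 h it was 36.8, 40.6 and 31.4%.

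In contrast to Alu elements and simple repeats, LTR and LINE elements often held a WRE. An LTR lay at the center of 49 gene-desert peaks of dnTCF1EWT at 2 h, 53 at 9 h and 33 of dnTCF1Emut, with a WRE in 14 (28.6%), 26 (49.1%) and 19 (57.6%). A LINE lay at the center of 24, 15 and 25 peaks, with a WRE in 12 (50%), 6 (40%) and 12 (48.0%). Among all peaks with a score above 67, a WRE was held by 41.0, 45.8 and 61.6% of LTR peaks. For LINE peaks the shares were 48.8, 53.6 and 45.6%, so that frequent WREs in these elements were not particular to gene-desert peaks. At 2 h the LTR share of dnTCF1EWT gene-desert peaks was below both the 41.0% and the 37.2% of all gene-desert peaks of this list. No interval was computed for this share of 49 peaks. Among the LTRs the MER11A, MER11B and MER11C elements, LTRs of the ERVK class, numbered 10 at 2 h, 21 at 9 h and 8 for dnTCF1Emut, and 4, 16 and 7 of these held a WRE, up to 5 in a peak. They were picked out after the repeat names had been counted. Their share of gene-desert peaks was 3.32% (1.81 to 6.01%), 5.26% (3.47 to 7.91%) and 2.39% (1.21 to 4.64%), against 2.77, 2.30 and 2.85% of all peaks with a score above 67. The scores of the 9 h members ranged from 68.2 to 133, with a median of 84.0, and 8 of the 21 were overlapped at 2 h. A MER11A element 138 kb upstream of KCNIP4, chosen after its values were seen, had scores of 220, 132 and 144 for dnTCF1EWT at 2 and 9 h and dnTCF1Emut at 2 h.

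Few genes had several gene-desert peaks. The 301 dnTCF1EWT 2 h peaks had 266 nearest genes, of which 31 had 2 peaks and 2 had 3 or more. The 9 h peaks had 360 genes, with 25 and 6, and the dnTCF1Emut peaks had 270, with 45 and 9. Of the peaks, 22.6, 17.5 and 35.5% belonged to a gene with 2 or more. The nearest genes shared between dnTCF1EWT at 2 h and dnTCF1Emut at 2 h numbered 99 (37.2% of the former and 36.7% of the latter), and 43 genes were in all 3 lists. A shared nearest gene need not be a shared region. These gene counts were not made over all peaks, so whether they are particular to gene-desert peaks is not known.

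At dnTCF1EWT 2 h, STT3B, which encodes a subunit of the oligosaccharyltransferase, had 3 peaks. Their scores were 85.5, 108 and 67.3 within 74.7 kb, and 1 held a WRE. No peak of cells without doxycycline overlapped any of the 3.

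At 9 h, ASMT had 4 peaks, counted on X and Y. LOC654342 had 4 peaks in simple repeats within 3.94 kb, with GC contents from 65.3 to 68.5% and scores from 67.9 to 107. SOX2, a factor of stem cells, and POM121L12 had 3 peaks each, all of them in Alu elements and with no WRE, and with scores from 73.1 to 108 and from 69.7 to 76.2. BMP2, a ligand of the TGF-β family, had 2 Alu peaks and a peak outside repeats, with scores from 71.7 to 111, and FAM47A had peaks in a LINE, an Alu and an LTR. Of the 20 peaks at these 6 genes, 15 lay in repeats.

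For dnTCF1Emut, MIR302F had 4 peaks, LOC1720 3 and PCDH7, a protocadherin, 3, all in simple repeats with GC contents from 1.11 to 5.73% and without a WRE. All 4 MIR302F peaks and all 3 LOC1720 peaks were overlapped at 0 h, and the strongest, 787 kb upstream of MIR302F, had scores of 599 at 0 h, 394 at 2 h and 216 at 9 h. CDH2, which encodes N-cadherin, had 2 simple-repeat peaks and a peak outside repeats. DAOA and CXorf36 had 3 peaks each outside simple repeats and with no WRE, and their scores ranged from 67.1 to 225 and from 67.1 to 255. VRK2, a protein kinase gene, had 1 simple-repeat peak and 2 others. ASMT had 4, of which 1 was AT-rich.

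Gene-desert peaks were mostly far from each other. Another member of the same list lay within 100 kb of 30 of 301 peaks of dnTCF1EWT at 2 h (9.97%, 7.07 to 13.9%), 42 of 399 at 9 h (10.5%, 7.88 to 13.9%) and 71 of 335 of dnTCF1Emut (21.2%, 17.2 to 25.9%). When all peaks with a score above 67 were taken, the shares were 24.4, 27.1 and 20.3%, and among the more numerous intergenic peaks within 100 kb of a TSS they were 19.3, 21.1 and 18.3%. The median distance to the nearest other member was 2669, 1798 and 833 kb. The dnTCF1Emut peaks were therefore the closest together, although the dnTCF1EWT 9 h list had more of them.

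**Figure D5:**
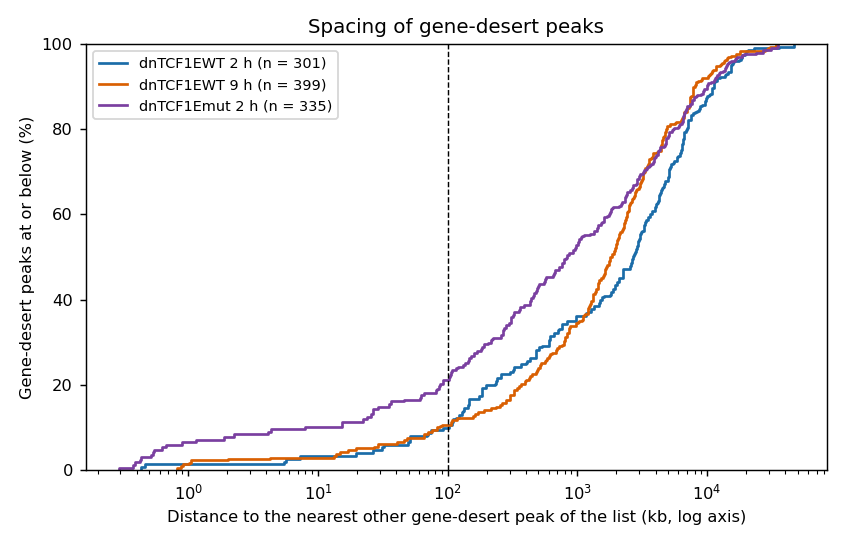
Cumulative share (%) of gene-desert peaks by the distance to the nearest other member of the same list (kb, log axis), 1 curve per list; the dashed line marks 100 kb. The dnTCF1Emut curve lies above the others at 100 kb, at 21.2% against 9.97 and 10.5%.

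Part of the close dnTCF1Emut pairs were pieces of AT-rich repeats. Within 1 kb of another member lay 22 dnTCF1Emut peaks, 20 of them with a GC content below 15% and none with a WRE, against 4 and 6 peaks for dnTCF1EWT at 2 and 9 h. Of the 71 dnTCF1Emut peaks within 100 kb of another, 25 had a GC content below 15% (35.2%), against 63 of the 264 that stood alone (23.9%). Linking members less than 100 kb apart gave 13 groups at 2 h, 18 at 9 h and 34 for dnTCF1Emut, of which 3 in each list had 3 or more members.

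The largest group of dnTCF1EWT at 2 h had 4 peaks over 170 kb between LOC100507605 and LYZL1 on chromosome 10. None of the 4 was in a repeat, and 3 held a WRE. For dnTCF1Emut, 3 peaks with a WRE each, none in a repeat, lay over 118 kb in the same interval. The other dnTCF1EWT 2 h groups with 3 peaks lay at STT3B and between BMP4 and CDKN3, over 75.8 kb. At 9 h the largest group had 6 peaks over 35.4 kb between MIR4436A and LOC654342, with GC contents from 65.3 to 70.7% and no WRE. The remaining dnTCF1Emut groups with 3 peaks lay near CDH2 and MIR302F on chromosome 18, and 5 of their 6 peaks were overlapped at 0 h.

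Of a list of 26 Wnt target genes, 6 were the nearest gene of a gene-desert peak. Genes were matched by symbol, so a dnTCF1EWT 2 h peak 100.7 kb from LEF1-AS1, with a score of 287, was not counted for LEF1. The peaks at the 6 genes numbered 7 of 301 for dnTCF1EWT at 2 h (2.33%, 1.13 to 4.72%), 4 of 399 at 9 h (1.00%, 0.391 to 2.55%) and 4 of 335 for dnTCF1Emut (1.19%, 0.465 to 3.03%), against 1.39, 0.717 and 1.06% of all peaks with a score above 67. The strongest belonged to AXIN2, which encodes a scaffold of the β-catenin destruction complex and is a feedback target of Wnt signaling. The peak at chr17:63429891-63430694, 127 kb from the TSS, held 5 WREs and had scores of 450 for dnTCF1EWT at 2 h and 231 at 9 h, and no dnTCF1Emut list had a peak there. A further AXIN2 peak at 9 h, 168 kb away, had a score of 146 and 1 WRE.

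At DKK1, a secreted Wnt antagonist, the lists held different regions. The dnTCF1EWT 2 h peak, at chr10:54212369-54212831, had a score of 174 and 2 WREs, and the dnTCF1Emut peak, at chr10:54203295-54204127, had a score of 214 and 1 WRE. BMP4, a ligand of the TGF-β family, had a region 145 kb upstream with scores of 71.0 and 161 for dnTCF1EWT and dnTCF1Emut at 2 h. The dnTCF1Emut score was the higher at this region. A second BMP4 peak of dnTCF1EWT at 2 h, 216 kb upstream, had a score of 107 and no WRE, and no other list had a peak there.

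TBX3, a T-box factor, had a dnTCF1EWT 2 h peak 694 kb upstream with a score of 117, overlapped by a dnTCF1Emut peak of 59.5, and no WRE. The SOX4 peak at 9 h, with a score of 70.2, lay in an Alu element.

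A list of 88 developmental transcription factors accounted for 12 gene-desert peaks of dnTCF1EWT at 2 h (3.99%, 2.30 to 6.84%), 17 at 9 h (4.26%, 2.68 to 6.72%) and 13 of dnTCF1Emut (3.88%, 2.28 to 6.53%). In the intergenic peaks within 100 kb the shares were 1.39, 1.34 and 1.03%, and over all peaks with a score above 67 they were 1.55, 1.59 and 1.63%. The intervals of the gene-desert peaks lay above these shares in each list. How much of the genome has such a gene as its nearest was not measured, so that no enrichment can be read from this difference.

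At 2 h the dnTCF1EWT peaks nearest these genes included those at IRX5, MAF, MSX2, RUNX2, SALL3, SOX2, TBX3 and TFAP2C, and 6 of the 12 held a WRE, against 37.2% of all gene-desert peaks of this list. An MSX2 peak 221 kb upstream had a score of 259, no WRE and 4 short Helper sites. At 9 h, 13 of the 17 peaks lay in Alu elements, against 51.1% of all gene-desert peaks of that list. They included those at GATA3, GATA6, ID4, IRX1, RUNX1, SOX2, SOX4, TFAP2B, ZIC1 and ZIC4, and 1 of the 17 held a WRE, against 20.8%. The dnTCF1Emut peaks included simple repeats at ETV1, ID4, IRX1 and SATB1, of which those at ETV1, IRX1 and SATB1 were also listed at 0 h, with the IRX1 repeat at scores of 448 at 0 h, 350 at 2 h and 143 at 9 h. Peaks outside repeats included those at GATA3, KLF5 (2 peaks, scores 118 and 116), KLF12 (173) and SALL3.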

How the data were processed

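ChIP-seq was analysed from the 6 lists of peaks deposited by the authors, 1 for each of dnTCF1EWT and dnTCF1Emut at 0, 2 and 9 h, from 8 samples of which the 2 inputs have no list. Per the labels, the authors used CASAVA 1.8.2, Bowtie2 2.0.0 on hg19, MACS 1.3 on pooled duplicates and HOMER 3.16 for annotation. The deposited values are the MACS peak score, GC as a fraction (0 to 1, shown here as percent), the distance to the nearest TSS, the repeat at the peak center and motif counts; the strands searched are not given in the sources used here. Members, gene lists and comparisons were chosen with earlier results of these data known.

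Shares were computed with Wilson 95% intervals (Python 3.11.15, SciPy 1.17.1, pandas 2.3.3), and overlap required 1 base. Neighbors were measured center to center. Overlap, neighbor and interval functions were tested on simulated data. Without replicates no test was made. Named were the 5 highest-scoring members of each list, the 10 shared regions with the highest lowest score over the 3 lists, genes with 3 or more members, and members nearest a Wnt target (26 genes) or a developmental transcription factor (88 genes). Repeat families and peaks within 1 kb were counted after the data were seen. Alternatives changed the score, distance, overlap and window. Some genes that the rule for named genes covers are not reported here.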

Additional observations from a re-analysis of the deposited data

How the results depend on the processing

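Of 99 values recomputed under another setting, 52 stayed within the interval of the reported value (counts within 1.5 times) and 47 did not; none was tied to a test, and the cause was not tested. Values follow in the order dnTCF1EWT 2 h, dnTCF1EWT 9 h, dnTCF1Emut 2 h. With a score of 100 or more, 146, 102 and 177 peaks remained; 54.1 and 44.1% of the dnTCF1EWT peaks at 2 and 9 h held a WRE, with median GC contents of 41.7 and 45%. Recovery was then 47.3% in the 9 h and 52.1% in the dnTCF1Emut list for dnTCF1EWT at 2 h, 52.9 and 24.5% in the dnTCF1EWT and dnTCF1Emut 2 h lists for dnTCF1EWT at 9 h, and 36.7 and 17.5% in the dnTCF1EWT lists for dnTCF1Emut, and a neighbor within 100 kb was found for 6.16% of dnTCF1EWT 2 h and 11.9% of dnTCF1Emut peaks. Beyond 250 kb there were 111, 177 and 164 peaks; 3.60% of the dnTCF1EWT 2 h peaks had a neighbor, 15.3% of the 9 h peaks were overlapped at 2 h, and for dnTCF1Emut 26.8% held a WRE, the median GC content was 33.0%, 17.1 and 8.54% were overlapped by dnTCF1EWT at 2 and 9 h, and 17.1% had a neighbor. Without peaks that overlap a 0 h peak, dnTCF1Emut had a WRE in 42.7%, a median GC content of 37.5% and 34.7% overlapped by dnTCF1EWT at 2 h, and without GC below 15% a WRE in 45.7%. When the overlap had to cover 50% of each peak, recovery was 22.3% for dnTCF1EWT 2 h in 9 h, and 20.9 and 8.66% for dnTCF1Emut in dnTCF1EWT at 2 and 9 h. Within 500 kb, 28.2, 24.1 and 43.3% had a neighbor. Restricted to peaks with no repeat or CpG island at their center, an alternative chosen after seeing the data, 51.6, 45.7 and 46.7% held a WRE, median GC contents were 41.7, 44.4 and 38.0%, and recovery was 38.7 and 45.8%, 50 and 24.5%, and 41.4 and 18.3%. Leaving out chromosome Y moved no value out of its interval.

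No paired analysis was possible because each condition is 1 pooled list. Depth is unknown, so that a region missing from a list is only known to be below its floor.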

Other observations

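Of the 37 dnTCF1EWT 2 h gene-desert peaks overlapped in both other lists, 23 had a score above 67 in all 3 lists, and the others were listed below 67 in at least 1. At the 90 regions that dnTCF1EWT at 2 h shared with 9 h, the median score was 204 at 2 h and 109 at 9 h, and 76 had the higher score at 2 h. At the 80 regions found from the 9 h side, 25 had the higher score at 9 h. At the 93 regions shared with dnTCF1Emut, 65 had the higher score for dnTCF1EWT, and at the 91 found from the dnTCF1Emut side, 41 had the higher score for dnTCF1Emut. Each set was chosen by a score above 67 in the list it starts from, scores are not scaled for depth, and line and protein cannot be told apart.

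Gene-desert peaks of dnTCF1EWT at 2 h were 8.97% on chromosome 3 against 4.66% of all its peaks with a score above 67, and 5.65% on chromosome 1 against 9.05%. At 9 h the shares on chromosome 5 were 9.27 and 5.59%, and for dnTCF1Emut those on chromosome 13 were 6.87 and 4.15%. The chromosomes named are examples, and others also differed, such as chromosome 17 with 0.997 against 5.16% for dnTCF1EWT at 2 h. On chromosome 3 the differences were smaller in the other lists, with 7.27 against 5.25% at 9 h and 6.27 against 6.02% for dnTCF1Emut. No interval was computed for these shares, and they were not set against the length of gene deserts on each chromosome.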
